A study of Mus musculus with 10 samples.

Results

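The 9 intermediate filament genes described here are *Vim*, *Nes*, *Des*, *Gfap*, *Synm*, *Krt7*, *Krt8*, *Krt18* and *Krt19*. They were taken by symbol from a count table of 50763 mouse genes, and all 9 were present. The table holds RNA-seq of lens epithelial explants from mice of 3 weeks of age in 10 libraries. Of these, 3 are wild-type (WT), 3 belong to the OVE853 line and 4 to OVE918. OVE853 and OVE918 are transgenic lines on the FVB/N background in which the lens-specific αA-crystallin promoter drives a constitutively active human TGF-β1. WT mice carried no transgene and no group was treated. Explants of both lines came from mice with anterior subcapsular cataract plaques, and the whole explant, not the plaque alone, was sequenced. Every library is a pool, of up to 9 mice in WT and OVE853 and of up to 7 mice in OVE918, so the spread between replicates is a spread between pools.

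Intermediate filaments are rope-like polymers that give cells mechanical strength, and which family members a cell makes depends on its type. Vimentin, desmin and GFAP can each build a filament alone, whereas nestin and synemin join filaments of those proteins and keratins form pairs of 1 acidic (type I) and 1 basic (type II) chain. The lens epithelium is known for vimentin filaments in place of the simple-epithelial keratins of most epithelia, and vimentin is widely used as a marker of epithelial-to-mesenchymal transition, the change that TGF-β drives in lens epithelial cells.

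In these libraries *Vim* was by far the most abundant of the 9 genes and its level was close in the 3 groups, while *Gfap*, *Synm*, *Nes* and *Des* were elevated in the lines over WT. *Gfap*, best known as the filament of astrocytes and reactive Müller glia, rose 3.56-fold in OVE853 and 3.76-fold in OVE918. *Synm*, which encodes synemin, rose 1.88-fold in OVE853, short of the minimum fold of a call, and 3.15-fold in OVE918. The rise of *Nes* was short of that minimum in both lines. *Des* was rare and was tested only in a wider set of genes, chosen after the data were seen. Of the simple-epithelial keratins, *Krt18* and *Krt19* did not pass the test in either line, and the rarely counted *Krt7* was lower in OVE918. The 9 genes thus did not move together.

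The libraries held 24073311 to 31908525 counts on genes, and their TMM scaling factors lay between 0.881 and 1.11. *Tgfb1* (chromosome 7, 25386390 to 25404506 on GRCm39) was at 50.3, 61.5 and 50.5 CPM (read counts scaled to the library total) in the WT libraries, at 337 to 360 CPM in OVE853 and at 712 to 877 CPM in OVE918, so that every library matched its label. Reads of the human transgene that aligned to the mouse gene could not be told apart from mouse *Tgfb1*. The lens markers *Cryaa* (76495 to 150610 CPM) and *Foxe3* (422 to 832 CPM) were high in all 10 libraries. Of the 6 lens epithelium markers listed, 0 were higher and 1 was lower in every transgenic library than in every WT library. The lower gene was *Six3*, at 114 to 117 CPM in WT, 88.3 to 89.6 CPM in OVE853 and 66.8 to 76.7 CPM in OVE918. *Cdh1* was at 256 to 393 CPM in WT, 170 to 226 CPM in OVE853 and 191 to 276 CPM in OVE918. WT replicate 3 stood apart from the other WT libraries by its summed markers of retinal neurons, at 548 CPM against 47.0 and 58.2 CPM, and of corneal and conjunctival epithelium, at 1623 CPM against 238 and 940 CPM. In bulk RNA, fewer cells of a type and less RNA per cell cannot be told apart.

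A gene was called differentially expressed where edgeR's quasi-likelihood test gave an FDR (the Benjamini-Hochberg adjusted p over all genes tested) no higher than 0.05 and the log2 fold change was 1 or more in either direction. To be tested, a gene needed 2 FPKM or more in 5 of the 10 libraries, FPKM being CPM per kilobase of exon. *Vim*, *Nes*, *Gfap*, *Synm*, *Krt18* and *Krt19* passed this minimum among 11095 genes. *Des*, *Krt7* and *Krt8* did not, and their tests come from a wider set of 18058 genes kept by edgeR's filterByExpr. In OVE853 versus WT, 1 of the 6 members tested was called, which was *Gfap*, and 4.43% of all 11095 genes were called (2.51% higher). In OVE918 versus WT, *Gfap* and *Synm* were called, 2 of 6, and the share over all genes was 5.60% (2.58% higher). Between OVE918 and OVE853, 0 of the 6 members were called with edgeR, against 0.487% of all genes, and DESeq2 and voom called 0 as well. *Synm* alone had an unadjusted p under 0.05 (1 of 6), and it alone had an FDR under 0.05, as did 1.30% of all genes. Counting by FDR without the fold minimum gave 3 members higher and 0 lower in each line over WT, against 15.8% of all genes in OVE853 (8.11% higher) and 19.0% in OVE918 (7.99% higher). For the 6 members the log2 fold changes had a median of 0.84 in OVE853 and 0.51 in OVE918, and for all 11095 genes of -0.01 and 0.01. Both comparisons use the same 3 WT libraries.

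Among the 18058 genes of the wider set all 9 members were present. There, 2 of 9 members were called in OVE853, both higher (*Gfap* and *Des*), beside 6.89% of all genes (3.17% higher). In OVE918, 5 of 9 were called, *Gfap*, *Synm* and *Des* higher and *Krt7* and *Krt8* lower, beside 8.79% of all genes (3.45% higher and 5.34% lower). Between the lines 0 of 9 were called with edgeR, beside 0.244% of all genes, and 1 of 9 had an unadjusted p under 0.05. *Des*, *Krt7* and *Krt8* entered this set through the groups in which they were counted, so these counts describe the 9 genes and are not support for a change of the family.

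**Figure D1:**
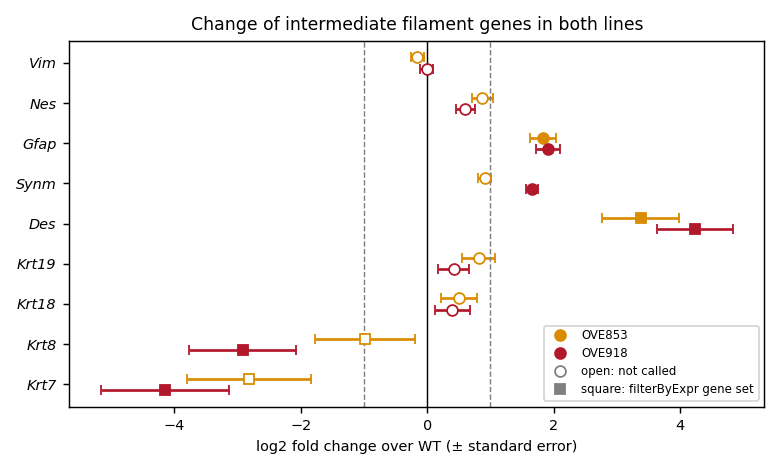
Log2 fold change over WT of the 9 genes (x axis, points with standard errors) in OVE853 (orange) and OVE918 (red), with dashed lines at a log2 fold change of 1 in either direction. Filled symbols are called genes and squares are genes tested in the filterByExpr set. *Gfap* and *Des* lie right of the dashed line in both lines, and *Vim* lies near 0. *Krt7* in both lines and *Krt8* in OVE918 lie far left with wide errors. *Krt8* in OVE853 lies just inside the left dashed line and is not called.

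The promoter sequences are shown here for *Vim*, the most abundant member, for *Gfap*, *Synm* and *Des*, which were higher in the lines, and for *Krt7*, which was lower. They are the 250 bases before the RefSeq start of each gene, 5′ to 3′ on the gene's own strand, and were placed on GRCm39 by exact match. The windows are chr2:13578872-13579121 on the plus strand for *Vim*, chr11:102788027-102788276 on the minus strand for *Gfap*, chr7:67409491-67409740 on the minus strand for *Synm*, chr1:75336686-75336935 on the plus strand for *Des* and chr15:101310034-101310283 on the plus strand for *Krt7*. The GENCODE annotation begins *Vim*, *Gfap*, *Des* and *Krt7* further upstream, so that these 4 windows lie inside the annotated gene. Capitals mark the TATA box in *Vim* and the SMAD box in *Krt7*.
Vim: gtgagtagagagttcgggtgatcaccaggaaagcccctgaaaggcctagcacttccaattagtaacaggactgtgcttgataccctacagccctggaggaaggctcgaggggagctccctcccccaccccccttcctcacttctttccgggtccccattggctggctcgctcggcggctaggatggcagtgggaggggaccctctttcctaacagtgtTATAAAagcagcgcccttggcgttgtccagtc
Gfap: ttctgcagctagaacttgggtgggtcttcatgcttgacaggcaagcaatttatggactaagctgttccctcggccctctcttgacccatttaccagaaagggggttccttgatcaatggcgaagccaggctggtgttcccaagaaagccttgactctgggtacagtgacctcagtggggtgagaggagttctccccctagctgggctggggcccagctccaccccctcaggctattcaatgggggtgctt
Synm: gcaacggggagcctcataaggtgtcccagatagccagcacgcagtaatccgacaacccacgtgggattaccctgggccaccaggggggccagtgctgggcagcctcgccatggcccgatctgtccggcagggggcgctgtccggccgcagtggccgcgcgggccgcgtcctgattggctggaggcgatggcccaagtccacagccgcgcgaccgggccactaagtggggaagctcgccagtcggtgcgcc
Des: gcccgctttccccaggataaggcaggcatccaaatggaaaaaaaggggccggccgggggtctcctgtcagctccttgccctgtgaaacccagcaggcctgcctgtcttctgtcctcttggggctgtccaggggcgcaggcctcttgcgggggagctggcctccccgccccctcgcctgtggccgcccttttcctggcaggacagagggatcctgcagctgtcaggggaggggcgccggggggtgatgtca
Krt7: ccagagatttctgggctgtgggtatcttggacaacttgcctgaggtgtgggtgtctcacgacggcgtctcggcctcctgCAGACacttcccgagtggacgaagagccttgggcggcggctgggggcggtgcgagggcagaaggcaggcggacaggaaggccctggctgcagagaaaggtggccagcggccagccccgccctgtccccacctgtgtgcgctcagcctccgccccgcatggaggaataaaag

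These windows were searched on both strands for a SMAD box (CAGAC), through which SMAD proteins bind DNA after TGF-β signalling, a STAT site (TTCNNNGAA), an AP-1 site (TGANTCA), the CArG box of serum response factor, and a TATA box (TATAAA). Of the 9 members, 8 were in the promoter table, and *Krt19* was not. The *Vim* window held a TATA box that began 32 bases before the start, a motif found in 12.4% of all 32851 promoters in the table. SMAD boxes were found in *Krt7* (171 bases before the start), *Nes* (231), *Krt18* (235) and *Krt8* (99 and 87), and 42.2% of all promoters held one. The windows of *Gfap*, *Synm* and *Des* held none of these motifs. STAT sites (7.02% of promoters), AP-1 sites (6.75%) and CArG boxes (1.47%) were found in none of the 8 windows, and no match overlapped another. A match of letters is not a measured binding site, and its absence covers only these 250 bases.

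*Vim* (chromosome 2, 13578738 to 13587639), the filament protein of mesenchymal cells and of the lens epithelium, was at 3364, 3665 and 3443 CPM in the WT libraries. The OVE853 libraries had 3261, 2921 and 3209 CPM, and the OVE918 libraries 3450, 3536, 3312 and 3561 CPM. All 3 OVE853 libraries lay below every WT and every OVE918 library, by a small margin, whereas OVE918 and WT overlapped. The log2 fold change was -0.16 ± 0.105 (SE, FDR 0.310) in OVE853 and -0.01 ± 0.098 (FDR 0.954) in OVE918, and neither passed the test. The 95% intervals ran from -0.36 to 0.05 and from -0.20 to 0.18 on the log2 scale, so that a change of *Vim* RNA by the minimum fold of a call lay outside both. Among cell types rich in vimentin, the summed fibroblast markers were at 212 to 263 CPM in WT, 250 to 312 CPM in OVE853 and 146 to 205 CPM in OVE918, and the macrophage markers at 10.2 to 25.5, 25.4 to 38.0 and 18.4 to 43.5 CPM. *Col1a2* and *Pdgfrb* made up most of the fibroblast sum, while *Dcn*, *Lum* and *Col3a1* were at 3.58 CPM or less in every library.

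Per length of exon, *Vim* outweighed the other members in each library. Its mean was 1592 ± 71.4 FPKM (SD, n = 3) in WT, 1427 ± 83.3 FPKM (n = 3) in OVE853 and 1580 ± 51.2 FPKM (n = 4) in OVE918. Its share of the summed FPKM of the 9 genes was 94.2% to 94.9% in WT, 86.7% to 88.0% in OVE853 and 87.8% to 89.6% in OVE918, and the ranges of both lines lay below that of WT. With the exon lengths of all annotated transcripts the mean shares were 91.0%, 81.0% and 83.1%. The sum over the 9 genes was 1628 to 1768 FPKM in WT, 1537 to 1689 in OVE853 and 1719 to 1833 in OVE918.

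In WT, *Vim* was followed by *Nes* (28.2 FPKM), *Gfap* (26.9) and *Krt19* (24.8), whose ranges overlapped, and then by *Synm* (7.32), *Krt18* (3.48), *Krt8* (0.539), *Krt7* (0.381) and *Des* (0.0647). *Krt8* and *Krt7* also overlapped in WT, and the ranges of all other neighbours in this order were apart. The order in OVE853 was *Vim*, *Gfap* (95.9 FPKM), *Nes* (51.7), *Krt19* (43.6), *Synm* (13.8), *Krt18* (4.95), *Des* (0.690), *Krt8* (0.271) and *Krt7* (0.0534), with overlap between *Nes* and *Krt19* and between *Des* and *Krt8*. OVE918 had the same order, with *Gfap* at 101 FPKM, *Nes* at 42.9, *Krt19* at 33.2, *Synm* at 23.1, *Krt18* at 4.60, *Des* at 1.24, *Krt8* at 0.0697 and *Krt7* at 0.0213. There, *Nes* overlapped *Krt19* and *Krt8* overlapped *Krt7*. *Gfap* was thus ranked next to *Vim* in every library of both lines, clear of *Nes*, and *Des* moved from the last place in WT to above *Krt8* and *Krt7*.

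**Figure D2:**
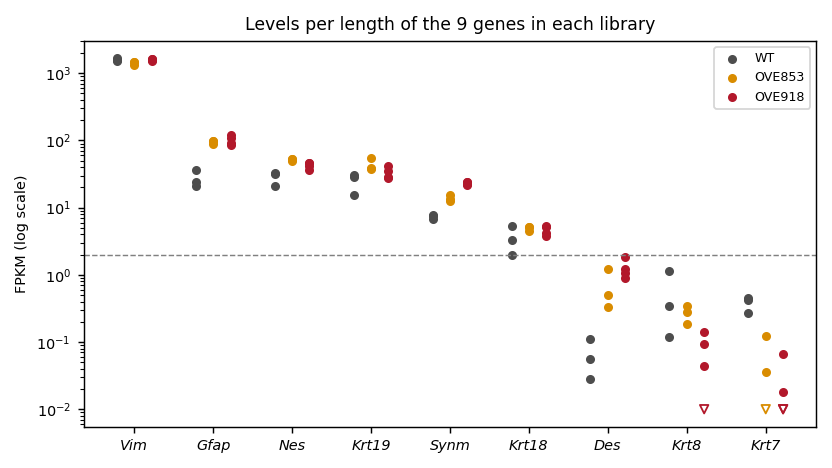
FPKM (log scale) of the 9 genes in each library of WT (grey), OVE853 (orange) and OVE918 (red), with open triangles for libraries with 0 counts and a dashed line at 2 FPKM. *Vim* lies at 1332 to 1671 FPKM, far above every other member, and *Gfap* lies at 84.3 to 122 FPKM in the lines and at 20.7 to 36.0 FPKM in WT.

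*Gfap* (chromosome 11, 102778159 to 102791738) encodes glial fibrillary acidic protein. Its levels were 103, 69.3 and 59.5 CPM in WT, 259, 287 and 281 CPM in OVE853, and 350, 242, 261 and 311 CPM in OVE918. The lowest transgenic library, at 242 CPM, lay well above the highest WT library. In edgeR the log2 fold change was 1.83 ± 0.202 (FDR 0.000224) in OVE853 and 1.91 ± 0.195 (FDR 7.84e-05) in OVE918. The call held in each of the 22 alternatives run for each line. Among these, FDR alone only drops the fold minimum and could not end a call. The lines did not differ from each other by the test (log2 fold change 0.08, 95% interval -0.28 to 0.44, FDR 0.816), and their ranges overlapped. Against *Vim*, there were 13.2 to 23.4 FPKM of *Gfap* for each 1000 FPKM of *Vim* in WT, 60.5 to 74.9 in OVE853 and 52.3 to 77.4 in OVE918.

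*Gfap* is also a gene of glia, and no listed glial marker was above WT in every library of the lines. The 6 Müller glia markers summed to 3507 to 5278 CPM in WT, 2050 to 2392 CPM in OVE853 and 2436 to 2919 CPM in OVE918. Of these 6 genes, 4 were lower in every library of the lines than in every WT library and 0 were higher, and all 6 were highest in WT replicate 3, the library with the lowest *Gfap*. *Dkk3*, at 1825 to 3717 CPM, made up most of that sum. The retinal astrocyte markers summed to 641 to 674 CPM in WT, 146 to 181 CPM in OVE853 and 88.1 to 112 CPM in OVE918, mostly through *Gja1*, a gap junction gene that the lens epithelium expresses as well. *Pax2*, which defines retinal astrocytes, was at 0.279 CPM or less in all 10 libraries. Photoreceptor markers summed to 7.35 to 41.4 CPM over all libraries. The part of glial cells in the level of *Gfap* was not tested.

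*Nes* (chromosome 3, 87878385 to 87887758) encodes nestin, the filament protein of neural and muscle progenitors. It was at 191, 199 and 129 CPM in WT, at 324, 299 and 327 CPM in OVE853, and at 223, 287, 286 and 256 CPM in OVE918. Both lines lay above WT in every library, and OVE853 lay above OVE918. *Nes* changed by a log2 fold of 0.87 ± 0.161 (FDR 0.00579) in OVE853 and 0.60 ± 0.152 (FDR 0.0184) in OVE918, which passed the FDR but not the minimum fold of a call. The difference between the lines, -0.27 on the log2 scale, did not pass the test (FDR 0.298). WT replicate 3 had the lowest *Nes*, and without it the log2 fold changes were the smallest of those with 1 library left out, 0.68 in OVE853 (FDR 0.00442) and 0.42 in OVE918 (FDR 0.0296). Over the 22 alternatives the highest FDR of *Nes* was 0.0311 in OVE853 and 0.057 in OVE918, the latter past the limit. Among the markers of endothelium, where *Nes* is also expressed, *Kdr* had negative log2 fold changes in both lines and the others had positive ones. The marker sum was 114 CPM in WT replicate 3 and 16.2 to 29.1 CPM in the other libraries, mostly through *Kdr* (112 CPM there). In the filterByExpr set *Pecam1* (2.04, FDR 0.0389), *Tie1* (2.01, FDR 0.0302) and *Cldn5* (2.03, FDR 0.0439) passed the FDR in OVE918 and not in OVE853. *Emcn* and *Kdr* passed it in neither line. *Cdh5*, which defines endothelium, was at 0.279 to 1.69 CPM in WT, 4.20 to 7.21 CPM in OVE853 and 3.40 to 4.33 CPM in OVE918, with log2 fold changes of 2.24 (FDR 0.0166) and 1.76 (FDR 0.0279) in the filterByExpr set. It was lowest in WT replicate 3, as was *Nes*, and the part of endothelial cells in the level of *Nes* was not tested.

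*Synm* (chromosome 7, 67379908 to 67409527) encodes synemin, which joins vimentin and desmin filaments and ties them to other parts of the cytoskeleton. Its levels were 61.4, 53.8 and 58.5 CPM in WT, 122, 105 and 100.3 CPM in OVE853, and 169, 178, 194 and 190 CPM in OVE918. The 3 groups were separate, with WT lowest and OVE918 highest. Over WT, *Synm* changed by a log2 fold of 0.91 ± 0.102 (FDR 0.000236) in OVE853, just under the minimum fold of a call, and 1.66 ± 0.0993 (FDR 2.61e-06) in OVE918, where it was called. *Synm* was also the only member to differ between the lines, by 0.74 ± 0.0958 on the log2 scale (FDR 0.00964), although this FDR rose to 0.0622 without OVE853 replicate 2 and to 0.0821 without OVE853 replicate 3. *Synm* rose in the order in which *Tgfb1* rose, but with 1 line at each level of *Tgfb1* the level and the line cannot be told apart.

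*Des* (chromosome 1, 75320511 to 75345223) encodes desmin, the filament of muscle. It was rare, with 2, 9 and 5 counts in the WT libraries, 53, 28 and 114 in OVE853, and 66, 102, 89 and 124 in OVE918. These correspond to 0.0890 to 0.345 CPM in WT, 1.03 to 3.86 CPM in OVE853 and 2.81 to 5.69 CPM in OVE918, and the lowest transgenic library was above the highest WT library. In the filterByExpr set, which *Des* entered through the lines, its log2 fold change was 3.38 ± 0.609 (FDR 0.00608) in OVE853 and 4.24 ± 0.599 (FDR 0.000842) in OVE918. Both calls held in all 20 alternatives, among which FDR alone could not end a call. The alternatives drew on the same libraries, and the calls are no more than a description of them. The size of the change was less certain, since leaving out WT replicate 2 gave 3.97 in OVE853 and 4.85 in OVE918, and leaving out OVE853 replicate 3 gave 2.64 in OVE853. The lines overlapped and their difference did not pass the test (0.86, FDR 0.362). No library reached 2 FPKM of *Des*, whose highest value was 1.82 FPKM in OVE918 replicate 4.

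Markers of muscle cells were likewise rare. The 6 smooth muscle and pericyte markers summed to 10.5 to 25.6 CPM in WT, 26.2 to 35.3 CPM in OVE853 and 20.9 to 33.4 CPM in OVE918. The pericyte gene *Cspg4* was the only one of them above WT in every library of the lines, at 0.698 to 1.65 CPM in WT, 3.84 to 8.23 CPM in OVE853 and 5.58 to 11.3 CPM in OVE918. *Myh11* and *Cnn1*, which define smooth muscle, stayed at or below 1.16 and 0.459 CPM in all 10 libraries. The skeletal muscle markers summed to 4.67 to 5.56 CPM in WT, 3.73 to 4.75 CPM in OVE853 and 4.82 to 9.28 CPM in OVE918, and 5 of the 6 were under 1 CPM in every library. The part of *Cspg4*-expressing cells in the level of *Des* was not tested.

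**Figure D3:**
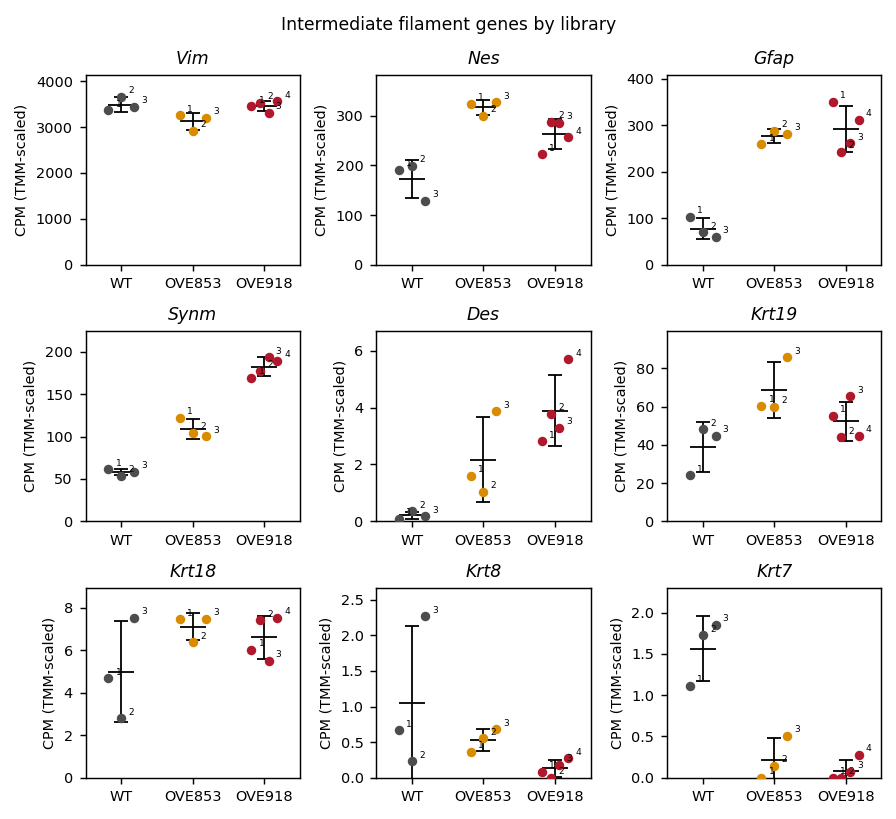
CPM of the 9 genes by group (x axis), each point being 1 library with its replicate number and the bars the mean ± SD, with every axis starting at 0. *Gfap*, *Synm*, *Nes* and *Des* have all transgenic libraries above all WT libraries, *Synm* rises from WT to OVE853 to OVE918, and *Krt7* has all transgenic libraries below all WT libraries.

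The 4 keratins among the members are those of simple epithelia. *Krt19* (chromosome 11, 100031636 to 100039491), a type I keratin, was the most abundant of them, at 24.1, 48.2 and 44.8 CPM in WT, 60.4, 59.8 and 85.8 CPM in OVE853, and 55.1, 43.9, 65.4 and 44.8 CPM in OVE918. OVE853 lay above WT in every library, while OVE918 overlapped both. *Krt19* changed by a log2 fold of 0.81 ± 0.257 in OVE853, just outside the FDR limit (0.0561), and 0.42 in OVE918 (FDR 0.258). Its type I relative *Krt18* (chromosome 15, 101936615 to 101940462) was at 4.67, 2.79 and 7.54 CPM in WT, 6.38 to 7.49 CPM in OVE853 and 5.51 to 7.53 CPM in OVE918, so that the transgenic libraries fell within the WT range. Its log2 fold changes of 0.50 (FDR 0.241) and 0.40 (FDR 0.349) did not pass the test, although voom with sample weights called *Krt18* in OVE853 (1.13, FDR 0.00222).

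The type II keratins *Krt7* and *Krt8* were near the limit of detection. *Krt7* (chromosome 15, 101308924 to 101328194) had 25, 45 and 53 counts in WT, 0, 4 and 15 in OVE853, and 0, 0, 2 and 6 in OVE918, and every transgenic library lay below every WT library. On the CPM scale this was 1.11 to 1.85 in WT, 0.508 or less in OVE853 and 0.276 or less in OVE918. Its log2 fold change was -2.82 ± 0.979 in OVE853, which did not pass the test (FDR 0.0788), and -4.15 ± 1.02 in OVE918, which was called (FDR 0.0189). Without OVE918 replicate 3 the latter FDR was 0.0608. The change was -5.67 in OVE918 without OVE918 replicate 4, and in OVE853 it was -2.23 without OVE853 replicate 1 and -4.43 without OVE853 replicate 3.

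*Krt8* (chromosome 15, 101905133 to 101912917), the usual partner of *Krt18*, had 15, 6 and 65 counts in WT, 12, 15 and 20 in OVE853, and 2, 0, 5 and 6 in OVE918. WT replicate 3 alone held most of the WT counts, and WT replicate 2 reached no more than the highest OVE918 library, with 0.230 CPM against 0.276 CPM. The log2 fold change of -2.92 ± 0.853 in OVE918 was called (FDR 0.0395), but without WT replicate 3 it was -1.70 with an FDR of 0.220. In OVE853 it was -0.98 (FDR 0.417), and 0.22 without that library. For each 100 FPKM of *Krt18* there were 6.03 to 22.1 FPKM of *Krt8* in WT, 3.55 to 6.64 in OVE853 and 0 to 2.69 in OVE918.

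Markers of neighbouring epithelia differed between the groups to unequal degrees. The corneal and conjunctival markers summed to 238 to 1623 CPM in WT, 64.7 to 95.7 CPM in OVE853 and 27.4 to 82.7 CPM in OVE918, nearly all of it *Aldh3a1*, a corneal crystallin, and 2 of the 7 genes were lower in every transgenic library. The sum of 5 markers of the non-pigmented ciliary epithelium was 616 to 1109 CPM in WT, 227 to 287 CPM in OVE853 and 54.9 to 124 CPM in OVE918, and all 5 were lower in every transgenic library. Pigmented epithelium markers overlapped, with sums of 22.7 to 93.6 CPM in WT and 13.8 to 43.4 CPM in the lines. Of these 6 genes *Ttr* (7.04 to 50.8 CPM in WT, 0.590 CPM or less in the lines) and *Rpe65* (1.30 to 15.2 CPM, and 0.847 CPM or less) were lower in every transgenic library, while the pigment cell genes *Tyr*, *Pmel* and *Dct* overlapped between WT and both lines. Their part in the levels of *Krt7* and *Krt8* was not tested.

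The wider family was read from a list of 49 genes, made up of other keratins, neuronal filaments, lamins, the beaded filament genes and syncoilin, the cytolinkers and desmosome genes that anchor filaments, and filament chaperones. Of these, 21 passed the FPKM minimum, and the only one called was *Krt4*, higher in both lines, where 4.43% and 5.60% of all genes were called. By FDR alone, 4 of 21 passed in OVE853 (2 higher and 2 lower) and 5 of 21 in OVE918 (3 higher and 2 lower), shares near the 15.8% and 19.0% of all genes. Over these 21 genes the log2 fold changes had a median of 0.14 in OVE853 and 0.17 in OVE918. Between the lines 0 of 21 were called with edgeR, DESeq2 or voom, and 4 had an unadjusted p under 0.05 in edgeR.

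*Krt4*, a type II keratin of moist stratified epithelia, was at 8.37, 11.3 and 6.14 CPM in WT, 36.9, 29.7 and 37.9 CPM in OVE853, and 20.0, 22.4, 20.0 and 25.0 CPM in OVE918. The 3 groups did not overlap and OVE853 was highest. The log2 fold change was 2.02 ± 0.201 (FDR 0.000119) in OVE853 and 1.34 ± 0.190 (FDR 0.000667) in OVE918, and both were called in all 21 alternatives. The difference between the lines, -0.68 on the log2 scale, did not pass the test (FDR 0.0789). *Krt4* made up 31.7% to 62.9% of the FPKM of the listed type II keratins in WT, 73.3% to 77.8% in OVE853 and 62.0% to 68.6% in OVE918, where *Krt19* made up 61.6% to 82.4% of the type I keratins over all libraries. The type II sum was 19.7 to 36.5 per 100 FPKM of the type I sum in WT, 34.6 to 46.2 in OVE853 and 26.0 to 38.8 in OVE918.

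In the filterByExpr set, 39 of the 49 genes were tested. There, 3 were called higher and 2 lower in OVE853, and 4 higher and 4 lower in OVE918, where 6.89% and 8.79% of all 18058 genes were called. Genes near the detection limit entered this set through the groups in which they were counted, as above. *Krt17*, a type I keratin induced in stressed epidermis, was at 0.356, 0.881 and 0.384 CPM in WT, 2.22, 2.29 and 3.08 CPM in OVE853, and 6.61, 5.30, 5.88 and 10.8 CPM in OVE918, with log2 fold changes of 2.22 (FDR 0.00655) and 3.73 (FDR 0.000158). The groups were separate. *Krt23*, another type I keratin, was called in OVE918 (3.25, FDR 0.00689, and 2.57 without OVE918 replicate 4) and not in OVE853 (2.21, FDR 0.0570).

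*Krt15*, a keratin of basal cells of stratified epithelia, was at 1.82, 6.59 and 11.1 CPM in WT and at 0.630 to 2.54 CPM in the transgenic libraries, and was called in OVE918 (-2.66, FDR 0.00654, and -2.06 without WT replicate 3) and not in OVE853 (-1.64, FDR 0.0737). *Krt12*, the keratin of corneal epithelium, had 17, 17 and 140 counts in WT and 0 counts in all 7 transgenic libraries, which allows up to 3 in each, so that it entered the set through WT alone and its call in both lines is no more than this description. Leaving out any 1 OVE853 library ended the call in OVE853, and leaving out OVE918 replicate 4 ended it in OVE918. Both genes are also in the corneal and conjunctival marker list above and were highest in WT replicate 3.

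Among the genes that anchor filaments, *Dsp*, which encodes the desmosomal linker desmoplakin, was at 0.191 to 0.267 CPM in WT, 1.22 to 2.00 CPM in OVE853 and 1.32 to 2.94 CPM in OVE918, with log2 fold changes of 2.65 (FDR 0.00371) and 2.98 (FDR 0.000859). *Evpl*, which encodes envoplakin of the cornified envelope, moved the other way, from 17.3, 27.5 and 35.0 CPM in WT to 9.74 to 12.0 CPM in OVE853 (-1.28, FDR 0.00361) and 6.14 to 7.21 CPM in OVE918 (-1.95, FDR 9.45e-05). *Dsg2*, a desmosomal cadherin, was lower in OVE918 (-1.78, FDR 0.00454) and not called in OVE853 (-0.22, FDR 0.693). *Dsp* had 5 to 7 counts in the WT libraries and entered this set through the lines. Of the 13 cytolinker and desmosome genes tested there, 1 was called higher and 1 lower in OVE853. In OVE918, 1 was called higher and 2 lower, where 6.89% and 8.79% of all genes were called in the 2 lines. Of the 8 that passed the FPKM minimum, 0 were called in either line.

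Several abundant genes of the list passed the FDR with changes of less than the minimum fold. *Plec*, which encodes plectin, the linker of vimentin to actin and to adhesion sites, was at 225 to 279 CPM in WT, 327 to 412 CPM in OVE853 and 313 to 448 CPM in OVE918 (log2 fold changes 0.57, FDR 0.0287, and 0.63, FDR 0.0103). *Pkp4*, a plakophilin of cell junctions, was lower in both lines (-0.56, FDR 0.0106, and -0.63, FDR 0.00216). Lower by FDR were also the junction genes *Pkp2* in OVE853 (-0.40, FDR 0.0498) and *Jup* in OVE918 (-0.59, FDR 0.0406). *Lmna*, the gene of lamins A and C in the nuclear lamina and the most abundant lamin per length in OVE918 (16.7 ± 3.27 FPKM, n = 4), was higher in OVE918 (0.77, FDR 0.0263). *Ppl*, the periplakin gene and the most abundant anchoring gene per length in both lines (41.4 FPKM in OVE853 and 39.8 FPKM in OVE918 as means, against 35.4 FPKM in WT), did not pass the test in either line (0.23, FDR 0.381, and 0.17, FDR 0.514).

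**Figure D4:**
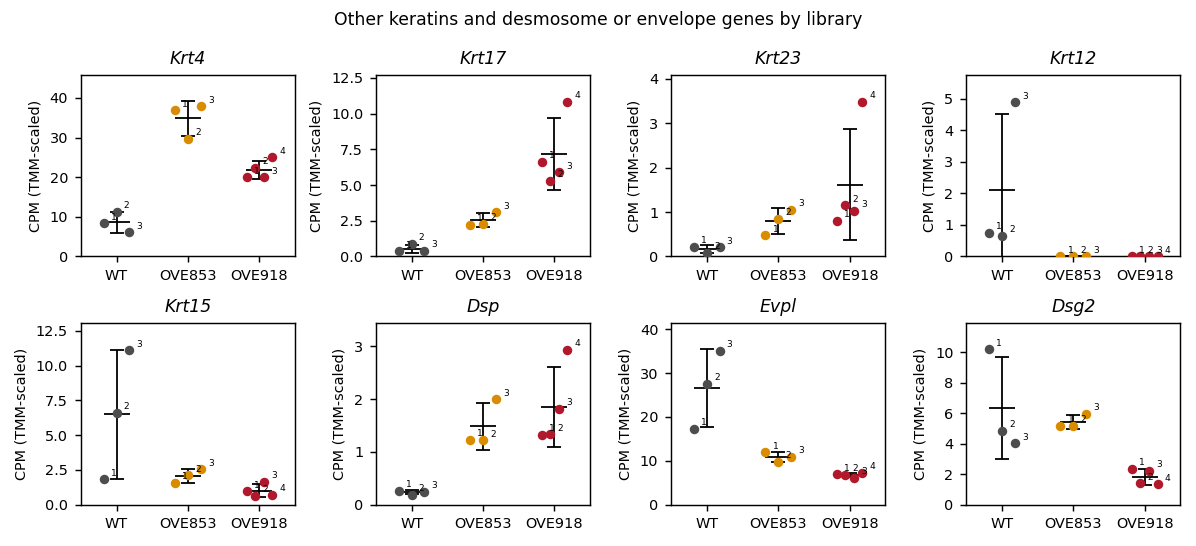
CPM by group of the 8 genes outside the 9 members that were called in at least 1 line, each point being 1 library with its replicate number and the bars the mean ± SD. *Krt4*, *Krt17*, *Krt23* and *Dsp* have all transgenic libraries above all WT libraries, *Evpl* has them below, and *Krt12* is at 0 in all 7 transgenic libraries.

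*Bfsp1*, which encodes the beaded filament protein filensin of lens fiber cells, was at 527 to 620 CPM in WT, 224, 253 and 927 CPM in OVE853, and 344 to 1382 CPM in OVE918, and did not pass the test (FDR 0.751 and 0.435). The highest *Bfsp1* of OVE853, in replicate 2, and of OVE918, in replicate 1, were in the libraries with the highest summed fiber cell markers of their line, 15035 and 26648 CPM. *Nefl*, the light neurofilament gene, had 104 CPM in WT replicate 3 against 7.97 and 10.8 CPM in the other WT libraries and was at 0.721, 4.79 and 0.474 CPM in OVE853 and, in OVE918, at 14.2 CPM in replicate 1 and 1.45 to 2.89 CPM in the other libraries. All OVE853 libraries lay below all WT libraries, as they did for the neuronal filament genes *Nefm* and *Ina*, whereas OVE918 overlapped WT through its replicate 1. The differences of *Nefl* did not pass the test (FDR 0.0634 and 0.107). *Cryab*, the small heat shock protein αB-crystallin and the most abundant chaperone listed, was at 25154 to 42691 CPM and did not pass the test (FDR 0.0803 and 0.821).

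Genes whose levels followed those of a member most closely were found by Pearson's r of log2 CPM over the 10 libraries and 11095 genes, which describes these libraries and largely reflects the separation of groups they share. For *Gfap* these included *Rmc1* (r = 0.989), *Cpxm2* (0.983), *Crabp2* (0.983) and *Mal2* (0.979). *Aebp1* (0.984), *Opalin* (0.978), *Ivns1abp* (0.978), *Plxdc1* (0.973) and *Cd44* (0.973) were closest to *Synm*. The genes nearest to *Vim* were *Gm3436* (0.941), *Mkks* (0.907), *Csnk2b* (0.894), *Rps19-ps6* (0.887) and *Sae1* (0.881), with lower r. Among the members tested, r was 0.87 between *Gfap* and *Synm* and 0.82 between *Gfap* and *Nes*, while *Vim* had an r of -0.39 with *Gfap* and -0.04 with *Synm*.

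Whether groups stood apart by library was counted in each of the 3 comparisons. OVE853 versus WT sets 3 libraries against 3, and the comparisons with OVE918 set 4 against 3. Groups of fewer libraries separate more readily, so each count is read only beside the share over all genes in the same comparison. In OVE853 versus WT, 4 of the 6 members tested were higher in every transgenic library (*Nes*, *Gfap*, *Synm* and *Krt19*) and 1 was lower (*Vim*), where 45.4% of all 11095 genes had groups that did not overlap (23.4% higher). In OVE918 versus WT, 3 of 6 were higher (*Nes*, *Gfap* and *Synm*) and 0 lower, against 27.2% of all genes (12.3% higher). Between the lines, *Vim* and *Synm* were higher and *Nes* lower in every OVE918 library, against 29.5% of all genes.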

How the data were processed

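Per the labels and the study's methods, the authors used Cutadapt 5.2 for trimming, STAR 2.7.11b for alignment to GRCm39, and counted read pairs on RefSeq genes with featureCounts 2.0.8. They deposited the raw counts of 50763 genes in 10 columns. CPM, on TMM-scaled library totals over the 11095 genes that passed the FPKM minimum, and FPKM were computed here from these counts.

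Counts were fitted here in R 4.3.3 with edgeR 4.0.16 (TMM, robust quasi-likelihood fit, 3 groups in 1 fit, 3 contrasts, Benjamini-Hochberg adjustment within each over all genes tested). FPKM used GENCODE vM39 Primary exon lengths, matched by symbol for 43252 genes and by synonym for 9, so that 7502 genes had no length and were not tested by FPKM. Library totals and the spread between pools limit the precision. In simulated data of 11095 genes with 200 changed 4-fold, 193 were recovered in OVE853 and 195 in OVE918, with 0 other calls. The planted change was above the minimum fold of a call. This recovery therefore does not cover smaller changes, such as those of *Nes* or of *Synm* in OVE853. No pair of replicates agreed within sampling noise (chi-square per degree of freedom 20 to 212).

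The members and lists were chosen with earlier results of these data known. All 9 members are named. Of the wider list, genes called in at least 1 contrast of either gene set and the most abundant gene of each sublist are named, and *Plec*, *Pkp4*, *Pkp2*, *Jup*, *Nefm* and *Ina* were added after their values were seen. A result that the naming rule gave is not reported here. Marker genes came from 14 lists of cell types. *Des*, *Krt7* and *Krt8* fell under the FPKM minimum, and their test in the filterByExpr set was chosen after seeing the data. The alternatives were DESeq2 1.42.0, voom with sample weights (limma 3.58.1), upper-quartile factors, other filters and lengths, other model terms and leaving out each library.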

Additional observations from a re-analysis of the deposited data

Results flagged for a closer look

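*Krt23* was at 3.49 CPM in OVE918 replicate 4, apart from the other 3 OVE918 libraries at 0.810 to 1.15 CPM by Dixon's criterion. Of the groups of 4 libraries examined there were 16, and chance sets a library apart in about 1 of 20.

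The rise of *Synm* over WT differed between the lines, with OVE918 minus OVE853 at 0.7428 on the log2 scale (edgeR FDR 0.009641). All 4 OVE918 libraries were above all 3 OVE853 libraries.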

How the results depend on the processing

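Under the alternatives, 547 of the members' fold changes kept their direction and side of the threshold, 7 passed it newly, 11 no longer passed it and 11 turned direction, and all 66 values of *Tgfb1* kept both. Members called in OVE853 numbered 3 by FDR alone, 2 by voom, 2 with filterByExpr and 2 with no filter, against 1. In OVE918, 5 were called with filterByExpr and 5 with no filter, against 2, and between the lines 1 by FDR alone, against 0. Wider-list genes called in OVE853 numbered 4 by FDR alone, 2 by DESeq2, 3 by voom, 5 with filterByExpr and 6 with no filter, and in OVE918 5, 3, 2, 8 and 7, against 1 in each, and 2 between the lines with no filter. Leaving out 1 library gave 1 to 4 in OVE853 (4 without WT replicate 1, 2 without WT replicate 3) and 1 to 3 in OVE918 (3 and 2 without the same libraries). The shares over all genes are given above for FDR alone and filterByExpr. For the other settings they were not computed, so these counts cannot be set against them and only describe how the calls moved. With lengths of all transcripts the *Vim* share was 90.95%, 81.04% and 83.07% in WT, OVE853 and OVE918. Direction turned only in log2 changes that had not passed the test. *Vim* in OVE918 (-0.0107) was 0.0293 with upper-quartile factors, 0.0075 with the R number of the library as a term, 0.0272 without WT replicate 2, 0.0121 without OVE918 replicate 3, 0.0113 with filterByExpr and 0.0092 with no filter, and from -0.0387 to 0.0272 with 1 library left out. Between the lines, *Gfap* (0.0779) was -0.023 with the R number and -0.0229 without OVE918 replicate 1 (up to 0.1556 without another library), and *Krt7* (-1.33) was 0.2907 without OVE853 replicate 3. *Krt8* in OVE853 (-0.98) was 0.4397 by voom and 0.2172 without WT replicate 3. *Krt8* in OVE918 kept its call in 10 of 20 alternatives, among them FDR alone, which could not end it. The causes were not tested. Same-numbered libraries had correlations of deviations from -0.30 to 0.08, so the numbers did not pair the libraries. With the replicate block, 1, 2 and 0 members and 1, 1 and 0 wider-list genes were called in the 3 comparisons, as without it, and *Krt7* in OVE853 passed the test (-3.28, FDR 0.0467).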
